A study of Homo sapiens with 4 samples.

Results

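The zinc finger gene clusters of human chromosome 19 are 6 stretches rich in genes of the KRAB zinc finger family, taken here by fixed limits on hg19: 11.7 to 12.8 Mb, 19.8 to 24.4 Mb, 36.5 to 38.5 Mb, 43.9 to 45.0 Mb, 52.0 to 54.2 Mb and 56.0 to 59.1 Mb, numbered 1 to 6 in that order. Accessible regions were made by joining ATAC-seq peaks of 4 libraries that shared at least 1 bp. A region belonged to a cluster when its midpoint lay inside the limits. This gave 384 regions in the clusters, of 3751 on chromosome 19 and 78788 in the genome. Within 0.1 Mb of the limits, 68 regions lay just inside and 95 just outside.

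HCT116, a line of human colorectal cancer cells, was used in its wild-type form, with 50000 cells per library. ATAC-seq uses a transposase that cuts open chromatin and inserts sequencing adapters, so that a peak marks a stretch of accessible DNA. In the treated group cells were kept for 6 h in 0.5 µg/ml tunicamycin, which blocks N-glycosylation and loads the endoplasmic reticulum with unfolded glycoproteins. The control group received 0.1% DMSO, the solvent, for 6 h. Each group held 2 libraries, which the series calls biological replicates. The results thus describe 1 cell line.

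KRAB zinc finger proteins bind DNA through arrays of C2H2 zinc fingers, and their KRAB domain recruits the corepressor TRIM28. TRIM28 in turn brings the histone methyltransferase SETDB1, which places H3K9me3, a mark of closed chromatin, often on retrotransposons. The genes arose by repeated tandem duplication. Their bodies are known to carry H3K9me3 themselves, most of all over the exons that encode the fingers, while their promoters can stay open. In the RefSeq gene table for GRCh38.p14, 269 of 616 protein-coding genes with a zinc finger symbol lay on chromosome 19. That build differs from the files' hg19, so no region was assigned to a gene, the label of the clusters could not be checked against gene positions, and regions are named by position.

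Listed peaks were sparse in the clusters. Per library, 309 and 307 peaks lay there after DMSO (replicates 1 and 2) and 311 and 340 after tunicamycin, or 21.9, 21.8, 22.1 and 24.1 peaks per Mb. The rest of the chromosome held 59.7, 62.8, 63.0 and 67.2 peaks per Mb in the same order. The density in the clusters was thus 0.356 ± 0.00912 (SD, n = 4 libraries) of that in the rest, and lower in 4 of 4 libraries. An exact two-sided sign-flip permutation test over the 4 libraries gave p = 0.13, the smallest value that 4 libraries allow. Any 4 values of the same sign give this p, whatever their spread, and the libraries share a cell line. Peaks covered 0.475%, 0.474%, 0.473% and 0.529% of the clusters, against 1.16% to 1.31% of the rest. The treatment of reads that map to several places, which bears on tandemly duplicated genes, is not given. Its part in the low density was not tested.

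The clusters were sparse beside the rest of their own chromosome, not beside the genome. Counted as joined regions, the clusters held 27.2 per Mb and the rest of the chromosome 81.8 per Mb. The other 22 chromosomes together held 26.9 per Mb, and 13 of them lay below the clusters. The length of a whole chromosome ended at its last region and left out only the largest stretch without a region. Other unassembled stretches can remain in it and lower these densities. The count of 13 and the order of 26.9 and 27.2 depend on that length. Chromosome 19 as a whole held 68.1 regions per Mb, the highest of the 23 sequences in the lists. The clusters made up 25.5% of the length of chromosome 19 and 10.2% of its regions. In the 1 Mb on either side of each cluster, outside all clusters, the density was 87.7 regions per Mb. The density in the clusters was 0.332 of that in these neighbouring stretches when peaks were counted per library, a comparison added once values were known.

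The 6 clusters differed widely among themselves. Cluster 2, which borders the centromere, was nearly empty of listed peaks over its 4.6 Mb. It held 14, 12, 17 and 15 peaks in the 4 libraries (DMSO replicates 1 and 2, then tunicamycin replicates 1 and 2). This is 3.15 ± 0.453 peaks per Mb (SD, n = 4). Cluster 5 held 21.3 ± 1.98 peaks per Mb, cluster 3 held 23.9 ± 0.854, cluster 1 held 30.5 ± 2.16 and cluster 6 held 36.5 ± 2.11. Cluster 4 stood apart at the other end, with 55.5 ± 4.0 peaks per Mb. Clusters 5 and 3 lay next to each other in this order, and their values overlapped between libraries; other neighbours in the order did not overlap.

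Each stretch before or between the clusters had a higher mean density than the cluster or clusters beside it. These stretches ranged from 26.6 ± 1.29 peaks per Mb between clusters 2 and 3, on the far side of the centromere, to 87.0 ± 3.06 between clusters 4 and 5. The values of clusters 3, 4 and 6 overlapped between libraries with those of the stretch just before each, whose means were 26.6, 58.1 and 40.1 peaks per Mb. Without cluster 2 the density of the clusters was 0.504 of the rest, and without cluster 4 it was 0.312. Both of these comparisons were added once values were known, and 0.504 was the highest ratio among the alternatives tried.

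**Figure D1:**
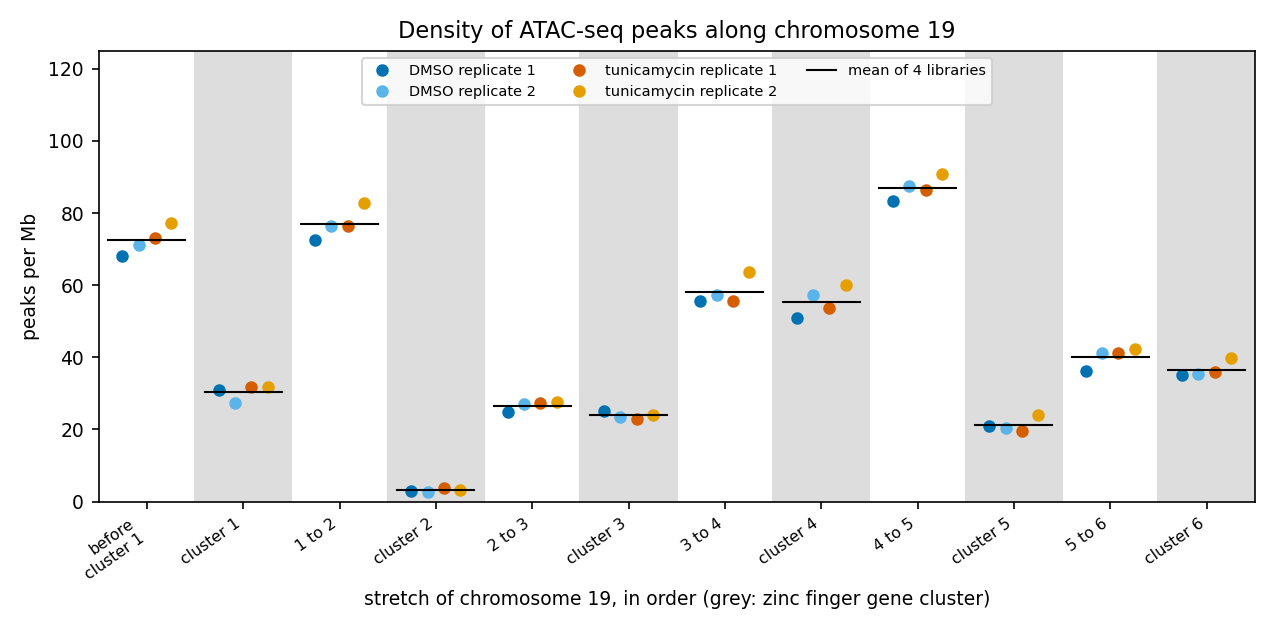
Peaks per Mb (vertical axis) in each stretch of chromosome 19 in order, with the 6 zinc finger gene clusters in grey; points are the 4 libraries and the line is their mean. Cluster 2 has the lowest mean, 3.15 peaks per Mb, and cluster 4 the highest of the clusters, 55.5, while the stretches between clusters reach 87.0.

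Windows without any region were more frequent in the clusters as a whole than in the rest, but not in each cluster. Of 141 windows of 100 kb in the clusters, 55 (39.0%) held no region in any library, against 56 of 412 (13.6%) in the rest. Of the 55, 36 lay in cluster 2, where they made up 78.3% of the windows. Windows with 10 or more regions were 8 in the clusters (5.67%) and 178 in the rest (43.2%). The longest empty stretch was in cluster 2, at 21579963 to 23433109, and measured 1853 kb. In cluster 6 no region was found over 843 kb, and in cluster 3 over 400 kb. The longest empty stretches of clusters 1, 4 and 5 measured 126, 139 and 230 kb. Long empty stretches were found between clusters as well, at 1528 kb between clusters 2 and 3 (beside the stretch left out of the length), 1071 kb between 5 and 6 and 594 kb between 3 and 4.

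The spacing of regions was more uneven in the clusters than in the rest. The distance to the nearest region had a median of 3.29 kb in the clusters (quartiles 0.207 and 12.5 kb) and of 1.96 kb in the rest (0.351 and 6.03 kb). Regions more than 20 kb from any other made up 16.1% of the clusters (62 of 384) and 3.36% of the rest (113 of 3367). Regions with a neighbour within 1 kb made up 40.6% (156) of the clusters and 38.6% (1300) of the rest. Within each library, 21.4%, 21.2%, 23.5% and 21.5% of cluster peaks were isolated by more than 20 kb, against 6.83%, 5.92%, 6.21% and 5.39% of the peaks in the rest. The difference averaged 15.8 percentage points in the same direction in 4 of 4 libraries (exact sign-flip permutation p = 0.13, the smallest possible). A low density by itself lengthens these distances, and no allowance was made for it. Isolated regions were most frequent in cluster 2 (11 of 18) and cluster 5 (21 of 64), and least in cluster 3 (3 of 54).

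**Figure D2:**
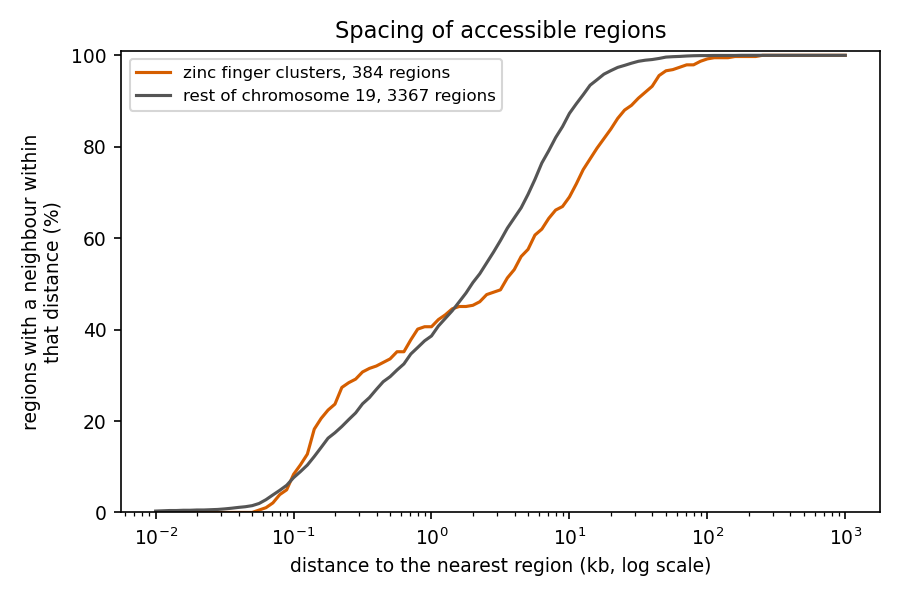
Share of regions (vertical axis, percent) with a neighbouring region within a given distance (horizontal axis, kb, log scale) in the clusters and in the rest of chromosome 19. The curve of the clusters lies above that of the rest at 1 kb, where they reach 40.6% and 38.6%, and lies below it at 20 kb, with 16.1% and 3.36% of regions still without a neighbour at 20 kb.

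Regions that lay close together were also described as pairs. Strength is given here as rank, the percentile of the authors' q-value in a library's own list, with 100 the strongest, averaged over the lists that hold the region. In the clusters 70 pairs of adjacent regions lay at most 500 bp apart (a distance set once values were known), or 18.2 pairs per 100 regions against 16.2 in the rest. The gap between the regions of a pair had a median of 136 bp (quartiles 104 and 208 bp) and their centres lay 380 bp apart at the median. Within a pair the regions were ordered by rank, which by itself sets them apart. The stronger had a median rank of 62.1 and was listed in all 4 libraries in 61 of 70 pairs (87.1%). The weaker had a median rank of 20.7 and was listed in all 4 in 25 pairs (35.7%). In the rest the contrast was similar. The stronger region had a median rank of 53.2 and was listed in all 4 libraries in 382 of 546 pairs (70.0%), and the weaker had 19.4 and 163 pairs (29.9%). No test was made of these pairs.

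Peaks in the clusters were wider than elsewhere on the chromosome. The median width was 192 and 198 bp in the DMSO libraries and 195 and 198 bp in the tunicamycin libraries, while in the rest it was 165, 166, 164 and 167 bp. The difference was 30.1 ± 2.17 bp (SD, n = 4 libraries), with the same sign in 4 of 4 libraries (exact sign-flip permutation p = 0.13, the smallest possible). Peaks of at least 300 bp made up 16.0% to 17.2% of the peaks in the clusters and 10.3% to 12.4% in the rest. By cluster, the median width averaged over libraries was 257 ± 21.0 bp in cluster 2, 205 ± 5.23 bp in cluster 6, 203 ± 8.76 bp in cluster 1, 193 ± 20 bp in cluster 3 and 185 ± 10.3 bp in cluster 5 (SD, n = 4). Cluster 4, the dense one, had 168 ± 4.66 bp, a value inside the 162 to 172 bp seen over the stretches between clusters.

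The excess width was found among strong peaks. At ranks of 0 to 25, cluster peaks measured 132 ± 0.479 bp and peaks of the rest 130 ± 1.11 bp (SD over 4 libraries of the median). At ranks of 25 to 50 the values were 166 ± 9.57 and 150 ± 1.60 bp, and at 50 to 75 they were 205 ± 11 and 175 ± 1.58 bp. At 75 to 100 they were 272 ± 12.9 and 220 ± 3.42 bp. The difference at these highest ranks was 57, 30, 65 and 59 bp in the 4 libraries, and at the lowest 1, 1, 3 and 0 bp. Width itself rises with rank, so peaks were compared within steps of 25 points, and above the lowest step cluster peaks were the wider. Q-values were not matched within a step. Ranks above 90 held 10.3% to 13.3% of cluster peaks and 9.64% to 10.9% of the others, and more of the cluster peaks in each library. The part of such differences in the widths was not tested. At the bottom of the lists, where widths lie near the minimum of 100 bp, the difference was at most 3 bp.

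**Figure D3:**
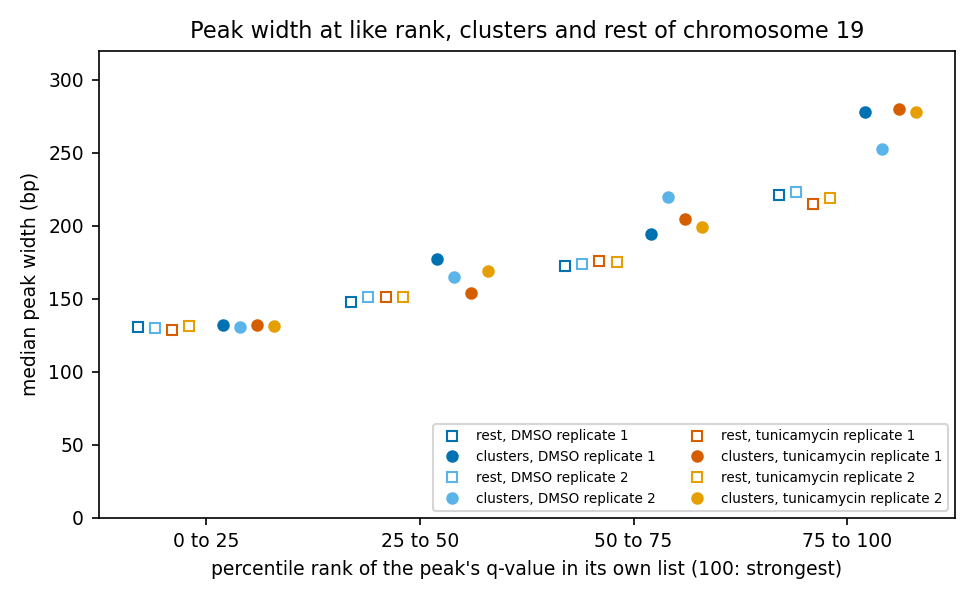
Median peak width (vertical axis, bp) by percentile rank of the q-value in steps of 25 (horizontal axis, 100 strongest); filled circles are the clusters and open squares the rest of chromosome 19, each library in its own colour. The values lie close together at ranks of 0 to 25, at 132 and 130 bp, and apart at 75 to 100, at 272 and 220 bp.

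Peaks in the clusters also ranked somewhat higher. Their median rank was 55.3, 54.5, 58.6 and 55.8 in the 4 libraries, and that of the rest 51.3, 51.4, 49.4 and 51.4. The mean difference of 5.15 points had the same sign in 4 of 4 libraries (exact sign-flip permutation p = 0.13). By cluster, the median rank averaged over libraries was 85.8 in cluster 2, 62.6 in cluster 1 and 57.7 in cluster 6. It was 53.1 in cluster 4, 52.9 in cluster 3 and 45.0 in cluster 5. Over the stretches before or between clusters it ran from 49.1 to 53.4. Ranks of 0 to 25 held 20.5% of cluster peaks and 23.7% of the others, and ranks of 75 to 100 held 29.2% and 25.6% (means of 4 libraries). The reads at the summit, recovered from the authors' fold and p-value, had a median of 17, 19, 19 and 18 in the clusters and 17, 18, 17 and 19 in the rest. These ranges overlapped. The local background that those values imply was lower in the clusters, at 0.634 to 0.712 reads against 0.701 to 0.761 in the rest, and lower in each library. Its part in the ranks and widths was not tested.

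Each cluster held regions near the top of the lists. The strongest of all lay in cluster 3 at 36606083 to 36606435, with 82 and 83 reads at its summit after DMSO and 90 and 98 after tunicamycin. Its ranks were 99.8, 99.7, 99.9 and 99.9, so that it stood in the top 1% in each library. In cluster 2 the strongest, at 19887137 to 19887636, had summits of 83, 78, 84 and 106 reads and a mean rank of 99.7. It lay 43.0 kb from the nearest other region. In cluster 6 the region at 58912566 to 58912979 had summits of 78, 73, 72 and 83 reads (mean rank 99.4). The strongest in cluster 4, at 44860660 to 44861027, had 45, 45, 50 and 52 reads and lay 51.3 kb from its neighbour. In cluster 1 the region at 12405551 to 12405905 had 55, 55, 45 and 55 reads, and in cluster 5 the region at 52097591 to 52097920 had 41, 49, 56 and 50 reads. These regions spanned 330 to 500 bp.

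Cluster 2 was sparse but strong. Of its 18 regions 11 were listed in all 4 libraries, and their mean ranks ran from 73.2 to 99.7 with a median of 92.7. In the other clusters the corresponding medians were 68.0 (cluster 1), 53.2 (cluster 3), 60.6 (cluster 4), 54.1 (cluster 5) and 62.1 (cluster 6). Of the 11, 6 ranked above 90. The remaining 7 regions of cluster 2 had mean ranks of 9.04 to 40.8. Open sites in this stretch thus fell into a strong and a weak set, with no region between mean ranks of 40.8 and 73.2. With 18 regions the division is a description, and no test of it was made.

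The widest regions were gathered in cluster 6. Averaged over libraries, 15 of the 249 cluster regions listed in all 4 measured at least 400 bp, and 9 of them lay in cluster 6, which held 92 of the 249. The widest, at 59030891 to 59031689, measured 789 and 735 bp after DMSO and 658 and 762 bp after tunicamycin. It had only 21, 26, 24 and 29 reads at its summit. The next, at 58987030 to 58987778, measured 675, 725, 715 and 656 bp, the last as the sum of 2 peaks. Those at 56651995 to 56652620 and at 58873810 to 58874418 measured 574 to 604 bp in every library. The region at 56632578 to 56633112 measured 464, 475, 489 and 535 bp. Outside cluster 6, the widest was at 52692809 to 52693327 in cluster 5, with 489, 505, 519 and 512 bp. The widths of the groups overlapped in the first 3 of these regions. Both tunicamycin widths were the larger at 52692809 and 56632578, and both were the smaller at 58873810.

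Cluster regions were found again in every library more often than other regions of the chromosome. Of the 384, 249 (64.8%, Wilson 95% interval 59.9% to 69.5%) had a peak in all 4 libraries, against 1862 of 3367 (55.3%, 53.6% to 57.0%) in the rest and 51.3% of all regions in the genome. Regions listed in a single library made up 14.3% (55, 11.2% to 18.2%) in the clusters and 19.8% (667) in the rest. Intervals cover counting error only, and regions from the same libraries are not independent. DMSO replicates 1 and 2 listed a peak in 78.9% and 79.4% of the cluster regions, and tunicamycin replicates 1 and 2 in 80.5% and 87.0%. In the rest the shares were 71.8%, 75.3%, 75.4% and 81.1%.

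Measured per library, 82.5%, 81.8%, 80.7% and 74.7% of cluster peaks lay in regions common to all 4 libraries, against 77.4%, 73.7%, 73.7% and 68.6% of the other peaks of the chromosome. The difference was 6.55 ± 1.25 percentage points (SD, n = 4 libraries) with the same sign in 4 of 4 (exact sign-flip permutation p = 0.13). A common region counts in each library, so the 4 values are linked. At ranks of 0 to 25 the difference was 2.41 points and ranged from -2.94 to 6.77 over libraries. It was 7.33 points at 25 to 50, 5.07 at 50 to 75 and 1.27 at 75 to 100, where 100% of cluster peaks lay in common regions. By cluster, the share of regions found in all 4 libraries ran from 51.6% in cluster 5 to 75.9% in cluster 3, with Wilson 95% intervals of 39.6% to 63.4% and 63.1% to 85.4%.

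**Figure D4:**
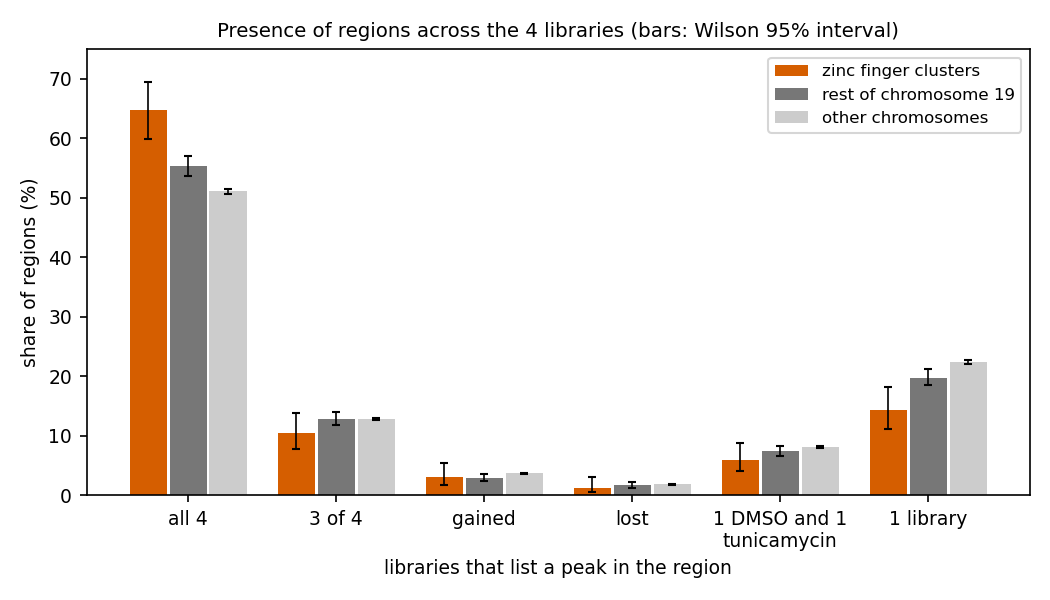
Share of regions (vertical axis, percent) by the libraries that list a peak in them, for the clusters (384 regions), the rest of chromosome 19 (3367) and the other chromosomes (75037); bars carry Wilson 95% intervals for counting error. Regions listed in all 4 libraries make up 64.8%, 55.3% and 51.1%, while the intervals for gained and for lost regions overlap between the clusters and the rest of chromosome 19.

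Tunicamycin and DMSO libraries differed little in the clusters as a whole. The number of cluster peaks was 308 ± 1.41 after DMSO and 326 ± 20.5 after tunicamycin (SD, n = 2 each), 1.06 times as many. In the rest of the chromosome it was also 1.06 times as many (2522 ± 89.8 and 2680 ± 122). Both tunicamycin libraries listed more cluster peaks than both DMSO libraries, the first by only 2 (exact permutation p = 0.33). The share of chromosome 19 peaks that lay in the clusters was 11.2% and 10.6% after DMSO and 10.7% and 10.9% after tunicamycin. Here the groups overlapped, and the means differed by -0.0634 percentage points (two-sided exact permutation p = 1, where 2 libraries against 2 cannot go below 0.33). The difference was 0.0574 points with lists of equal length and 0.212 without DMSO replicate 1, so its sign depended on the setting.

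Widths and ranks were compared next. The median width of cluster peaks was 195 ± 4.24 bp after DMSO and 196 ± 1.77 bp after tunicamycin (SD, n = 2 each), and the groups overlapped (exact permutation p = 1). The median rank was 54.9 ± 0.510 and 57.2 ± 2.0, without overlap (exact permutation p = 0.33, the smallest possible). The share of cluster peaks at ranks above 90 was lower after tunicamycin, at 10.6% and 10.3% against 13.3% and 12.7% after DMSO. These groups did not overlap either, and no test of this share was made. In the rest it was 9.64% and 9.65% after tunicamycin and 10.5% and 10.9% after DMSO. The density ratio of clusters to rest was 0.357 ± 0.0144 and 0.355 ± 0.00616, with overlap. By cluster, the mean density after tunicamycin was above that after DMSO in 5 of 6, cluster 3 being the exception with 23.5 and 24.3 peaks per Mb.

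A region was called gained when both tunicamycin libraries and neither DMSO library listed a peak in it, and lost in the reverse case. In the clusters 12 regions (3.13%) were gained and 5 (1.30%) lost, against 3.65% gained and 1.86% lost over all regions of the genome. The shares in the clusters lay near this background. Without DMSO replicate 1, DMSO replicate 2, tunicamycin replicate 1 or tunicamycin replicate 2, the gained regions numbered 26, 22, 33 and 25 and the lost 17, 14, 11 and 15, since a group of 1 library then needs 1 peak only. In the rest of chromosome 19, 99 (2.94%) were gained and 57 (1.69%) lost. Gained regions were 70.6% of the gained and lost regions in the clusters (Wilson 95% interval 46.9% to 86.7%) and 63.5% in the rest (55.7% to 70.6%). A further 23 cluster regions had a peak in 1 library of each group. Of the 12 gained regions, 5 lay in cluster 4, 5 in cluster 6, and 1 each in clusters 2 and 5.

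Gained and lost cluster regions ranked low, as did other regions missing from some lists. Their mean ranks reached at most 48.4 for gained and 28.2 for lost regions, and their medians were 27.3 and 21.3, against 62.8 for the 249 regions found in all libraries, 21.1 for those in 3 libraries and 16.3 for those in 1 library of each group. Absence from a list itself selects for low rank. The gained region of highest rank, at 56179456 to 56179601 in cluster 6, had 20 and 14 reads at its summit in tunicamycin replicates 1 and 2 and peaks of 146 and 121 bp. Next were 3 regions at 44261775 to 44261924 and 44314078 to 44314246 in cluster 4 and at 58694648 to 58694835 in cluster 6. Their summits held 18 and 23, 10 and 8, and 9 and 15 reads. The first of these 3 lay 163 bp from a region common to all libraries. The gained region of cluster 2, at 23619881 to 23619984, had 10 and 6 reads, and that at 44039746 to 44039910 in cluster 4 had 19 and 13. The smallest summit of a listed cluster peak held 3 or 4 reads, depending on the library. Absence from a list therefore means that no peak was called, not that no reads were present.

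All 5 lost regions had between 6 and 20 reads at their DMSO summits. They lay at 52056563 to 52056684 (8 and 7 reads in DMSO replicates 1 and 2), at 11784434 to 11784593 (6 and 9), at 56152245 to 56152372 (20 and 13), at 56199973 to 56200112 (10 and 8) and at 44259103 to 44259348 (12 and 10). Their mean peak widths ran from 106 to 129 bp. The last of them lay 190 bp from a common region. No lost region was found in clusters 2 and 3, and no gained region in clusters 1 and 3.

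Among the regions found in all 4 libraries, none in the clusters changed in rank beyond the test. Ranks over the 40447 common regions of the genome were turned into normal scores, on which the middle of the common regions is 0; the strongest region of cluster 2 scored 2.67, 2.39, 2.66 and 3.00. They were compared with limma, with Benjamini-Hochberg adjustment over all 40447. Of the 249 cluster regions 0 rose and 0 fell at an adjusted p under 0.05 (the smallest was 0.453), where 0.0346% rose and 0.0173% fell over all common regions. At an unadjusted limma p under 0.05, 1 was higher and 6 lower, against 3.72% and 3.61% over all regions. In 34 cluster regions (13.7%) the lower tunicamycin rank exceeded the higher DMSO rank, and the reverse held in 39 (15.7%), against 18.0% and 18.3% over all regions. The median change was -0.01 units, against 0.00 over all regions. The median standard error of a change was 0.378 units. In simulated data 29% of changes of 1 unit and 94% of changes of 2 units were recovered, so most changes of 1 unit would be missed for single regions. The simulation gave regions of like mean the same spread, so recovery in the data can be lower.

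The largest rise in rank among cluster regions was at 56497932 to 56498156 in cluster 6. Its ranks were 24.7 and 3.65 after DMSO and 62.9 and 32.4 after tunicamycin, and its summits held 7, 4, 15 and 10 reads. The change was 1.31 ± 0.532 units (SE, limma adjusted p = 0.559), 0.63 without DMSO replicate 2 and 0.77 without tunicamycin replicate 1. Its groups did not overlap, and it lay 40.5 kb from any other region. Regions at 38422685 to 38422948 and 38146303 to 38146493 in cluster 3 followed, with changes of 0.75 and 0.73 units. Their summits held 11, 11, 19 and 15 reads and 9, 7, 16 and 9 reads. The next 3, at 44288631 to 44288834, 59084121 to 59084486 and 44529363 to 44529603, had changes of 0.72, 0.71 and 0.68 units. The first of these had DMSO ranks of 65.7 and 21.1 that enclosed the tunicamycin rank of 58.7, and its change was -0.02 units without DMSO replicate 2. At 38146303 the groups overlapped as well, and in the other 4 they did not. None of these 6 passed the test (limma adjusted p from 0.559 to 0.824). Without tunicamycin replicate 1 the change was 0.39 at 38422685, 0.08 at 38146303 and 0.25 at 59084121. Without DMSO replicate 1 it was 0.37 at 44529363. With peaks up to 250 bp apart merged it was 0.22 at 38422685 and 0.11 at 59084121.

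The largest fall was at 56638831 to 56639035, also in cluster 6. Its ranks were 13.3 and 52.3 after DMSO and 0.184 and 11.5 after tunicamycin, on summits of 6, 12, 3 and 6 reads. The change was -1.77 ± 0.625 units (SE, limma adjusted p = 0.453, 95% interval -3.02 to -0.53). The region was picked for this fall, and neither the SE nor the interval allows for that choice. The region at 12034543 to 12034684 in cluster 1 had ranks of 47.8, 35.1, 11.1 and 9.32 and a change of -1.36 units. In cluster 5, the region at 52111257 to 52111494 had ranks of 71.5, 51.4, 17.2 and 43.5 (-1.12 units). The other 3, at 53426239 to 53426481, 57702706 to 57703128 and 56143098 to 56143319, had changes of -0.90, -0.87 and -0.82 units. In all but 1 of these 6 both tunicamycin ranks lay below both DMSO ranks; at 56143098 the groups overlapped. None passed the test (limma adjusted p from 0.453 to 0.816). Without tunicamycin replicate 1 the changes were -0.93 at 56638831, -0.67 at 52111257, -0.49 at 53426239, -0.58 at 57702706 and -0.06 at 56143098. That at 56638831 was -1.09 without DMSO replicate 2, and that at 53426239 was -0.18 with peaks up to 250 bp apart merged. The change at 12034543 stayed between -1.52 and -1.13 with each library left out in turn.

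**Figure D5:**
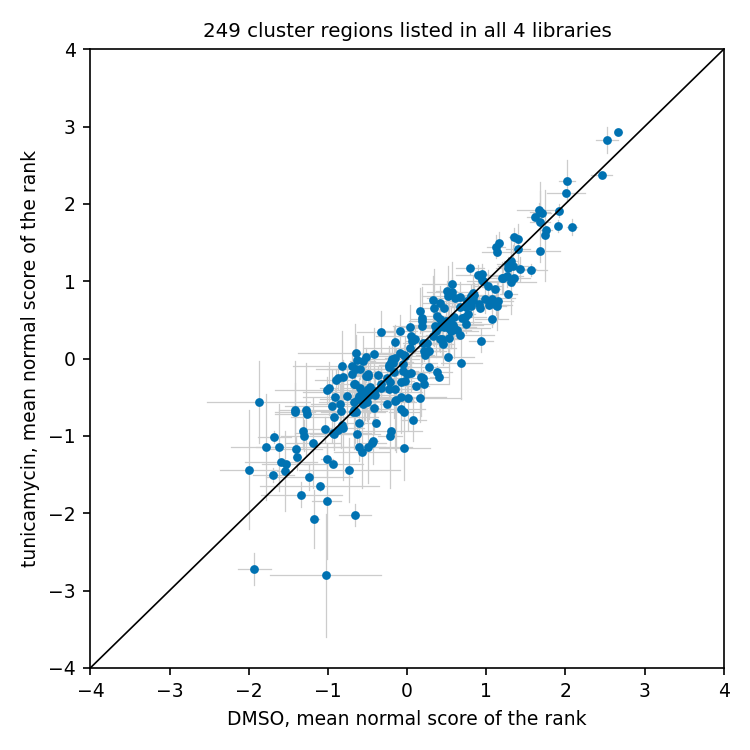
Mean normal score of the rank after DMSO (horizontal axis) and after tunicamycin (vertical axis) for the 249 cluster regions found in all 4 libraries; grey lines join the 2 replicates and the diagonal marks equal scores. Strong regions lie close to the diagonal, and the spread grows toward weak regions, where the largest fall of 1.77 units and the largest rise of 1.31 units are found.

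The width of common regions was compared in the same way, on a log2 scale. Of the 249 cluster regions 0 passed in either direction (smallest limma adjusted p = 0.478), as did 0.00% of the 40447. At an unadjusted limma p under 0.05, 8 were wider and 6 narrower after tunicamycin, against 3.81% and 2.41% over all regions. Both tunicamycin widths exceeded both DMSO widths in 50 cluster regions (20.1%) and fell short of them in 35 (14.1%), against 20.0% and 13.6% over all regions. The median change was 0.02 on the log2 scale, as it was over all common regions.

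The single regions with the largest differences in width were singled out with their values known. At 58962767 to 58963240 in cluster 6 the peak measured 462 and 474 bp after DMSO and 255 and 274 bp after tunicamycin (log2 change -0.82 ± 0.09, SE, limma adjusted p = 0.478). Its rank did not fall with its width: the ranks were 68.6, 87.7, 82.2 and 93.1. At 12662298 to 12662731 in cluster 1 the peak measured 266, 211, 424 and 427 bp (0.84 ± 0.14, limma adjusted p = 0.552), with ranks of 96.7, 97.6, 97.0 and 96.5. At 56826044 to 56826320 in cluster 6 it measured 118, 113, 229 and 218 bp (0.95 ± 0.13, limma adjusted p = 0.480), at low ranks of 12.0 to 33.9. The groups did not overlap in any of these 3 regions. The nearest other region lay 8.34 kb from the first, 72 bp from the second and 142 bp from the third.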

How the data were processed

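The authors deposited 1 list of ATAC-seq peaks per library on hg19. The submitters' processing notes name MACS2 2.2.7.1, Bowtie2 2.3.5.1 and Picard 2.18.23, beside deepTools, SAMtools and Trim Galore. How reads that map to several places were treated, which bears on tandemly duplicated genes, is not given in the sources used here; its part in the results was not tested. The deposited score, fold (a ratio of summit to local background), −log10 p-values and −log10 q-values are the authors' own. They served only to describe, rank and filter peaks within a list. No list gives read totals, and lists held 56566 to 62526 peaks, of which 2767 to 3106 were on chromosome 19. Listed peaks were at least 100 bp wide.

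Summit reads were recovered as the whole number that fits the deposited fold and −log10 p-value together, to 0.001, in 100% of chromosome 19 peaks. Libraries were grouped by title. Peaks were merged, counted and tested in Python 3.11.15 (pandas 2.3.3, numpy 2.4.6, scipy 1.17.1) and, for changes of rank and width, in limma 3.58.1 under R 4.3.3. The prior spread was allowed to vary with the mean. The length of the rest of the chromosome leaves out the largest stretch without a region (24216619 to 28238023) as far as it lies outside cluster 2, and ends at the last region. On simulated data over 40447 regions with 200 changed, the rank comparison recovered 94% of changes of 2 units and 29% of changes of 1, with 7 unchanged regions called. The width comparison recovered 64% of log2 changes of 1 and 4% of 0.5, with 3 unchanged regions called. Both simulations gave regions of like mean the same spread, so recovery in the data can be lower. In the data, 155 of the 40447 common regions changed in width by more than 1 on the log2 scale, and 0 were called. In rank, 1329 changed by more than 1 unit in either direction, and 21 of the 40447 were called. Merging returned 1500 of 1500 planted regions.

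Named regions are the strongest common region of each cluster, the 6 gained and 6 lost regions of best rank (5 lost existed), the 6 largest rises and falls in score, and the 6 widest. The members and lists were chosen with earlier results of these data known. Alternatives were stricter q-values, other merging rules, equal lists, wider peaks, shortened clusters, each library left out and the replicate block. No hg19 sequence was used, so none is printed.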

Additional observations from a re-analysis of the deposited data

How the results depend on the processing

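The density ratio, the difference in width and the difference in the share of common peaks kept their direction under all alternatives run: 0.312 to 0.504, 25.9 to 38.9 bp and 3.98 to 9.63 percentage points. The difference in the share of chromosome 19 peaks in the clusters changed sign, to 0.0421 points at a −log10 q of at least 10, 0.0574 with lists of equal length and 0.0524 with clusters shortened by 0.1 Mb. With single libraries left out it ran from -0.339 (without DMSO replicate 2) to 0.212 (without DMSO replicate 1). Gained regions numbered 6 with peaks of at least 150 bp and 22 to 33 with a library left out. Lost regions numbered 1 at a −log10 q of at least 10, 3 with shortened clusters and 11 to 17 with a library left out. With a library left out fewer lists have to hold or lack a peak, which raises these counts by construction. The filtered counts held other regions too. None of the 6 named gained regions was among the 6 with peaks of at least 150 bp. The 1 lost at a −log10 q of at least 10 was none of the 5 lost in the main setting. Of 121 repeats over the named gained and lost regions, 98 kept the class. With a library left out or clusters shortened they could not lose it, by construction. No named region kept it with peaks of at least 150 bp, and no named lost region did at a −log10 q of at least 10. In limma 0 cluster regions were called in rank or in width under all 10 alternatives each. The named changes of rank were repeated only where the region still had a peak in every library used, which gave 111 repeats. Of these, 110 kept their direction. The other 1, at 44288631, reversed to -0.0173 units without DMSO replicate 2, and with single libraries left out its change ran up to 1.39 units. The regions were chosen for large changes in these same libraries, whose peaks the alternatives use again. A kept direction was thus favoured by construction. The largest rise, at 56497932, and the largest fall, at 56638831, could each be followed in 8 of the 10 alternatives. Both dropped out with the limit on the q-value and when peaks under 150 bp were removed. Sizes were less stable than directions: with single libraries left out, the change ran from 0.08 to 1.36 at 38146303, from -1.55 to -0.06 at 56143098, from 0.25 to 1.15 at 59084121 and from 0.63 to 1.87 at 56497932.

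Replicate numbers are shared between the groups, but the labels do not say that they mark a common batch. The deviations of same-numbered libraries correlated by 0.0111 over 40447 common regions. With the replicate number as a block, limma called 0 cluster regions in rank, and 35 of all common regions against 21 without it (0 to 35 over the settings). The difference in share was -0.0634 points (-0.458 and 0.331 within numbers 1 and 2). Low summit counts limit the calls on weak regions: 16.0% to 18.4% of cluster peaks rested on under 10 reads.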
